A study of Mus musculus with 76 samples.

Results

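The induced bone marrow early T progenitors (labelled BM_iETPs, 2 libraries) were compared with pro/pre-B cells (labelled Pro-_Pre-B, 3 libraries), the cell type from which the study made them. These are 5 of the 75 distinct mouse RNA libraries of the series, taken by their labels, and all genes entered: 17416 of 37980 passed the filter of at least 1 FPKM (fragments scaled to transcript length and library depth) in at least 2 of the 75 libraries. Induced BM ETP libraries 1 and 2 came from the marrow of C57BL/6J recipient mice. These recipients had been irradiated at a sublethal dose and given pro/pre-B cells that carried a Hoxb5 virus and had been sorted after infection. The gate that defined the induced cells is not given in the labels. Pro/pre-B libraries 1, 2 and 4 came from sorted marrow cells of the same strain, and pro/pre-B library 3 is an exact copy of library 1 and was left out. Every library was made from 1000 sorted cells. The labels share 1 protocol text, so they do not say whether the pro/pre-B libraries held transduced cells, nor which libraries came from separate animals. The p-values below measure only spread between libraries, pooled over all 24 groups of the series. Irradiated recipients keep some of their own blood cells, which limits how a library sorted from their marrow can be tied to the transferred cells. The age of the animals is not given in the labels.

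Pro-B and pre-B cells are the marrow stages in which immunoglobulin heavy and then light chain genes are rearranged. They are held in the B lineage by Ebf1 and Pax5, and they test each new heavy chain with a surrogate light chain made of Igll1 and VpreB. Early T progenitors are the most immature cells of the T lineage: they respond to Notch signals in the thymus and switch on Tcf7, Gata3 and then Bcl11b. Hoxb5 is a homeobox transcription factor best known in blood as a marker of long-term stem cells.

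Depth was similar but not equal across the 5 libraries. One FPKM on a transcript of 1 kilobase stood for about 3.497 and 4.49 fragments in the induced libraries and 5.26, 4.32 and 3.73 in pro/pre-B, and 10661 and 10534 genes against 10760, 10795 and 10589 reached 1 FPKM. On the log2(FPKM + 1) scale, the induced libraries correlated with each other at 0.954 and the pro/pre-B libraries at 0.943 to 0.953, while pairs across the groups stood at 0.895 to 0.911. These correlations are across genes, which are not independent replicates. Hoxb5 itself was listed at 0.0976 and 0.618 FPKM in the induced libraries, against 0.0647, 0 and 0 FPKM in pro/pre-B (log2 fold change 0.38, SE 0.20, adjusted p = 0.229). It did not pass the test, and the table does not part viral from native Hoxb5 RNA.

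B lineage RNA and Flt3 in the induced libraries went against their label: B lineage genes were high, and Flt3, which natural marrow ETPs carry, was near 0. Ebf1 stood at 112 and 116 FPKM and Igll1 at 4261 and 3571 FPKM in the induced libraries, while the 3 natural marrow ETP libraries listed Ebf1 at 0 and held Igll1 at no more than 6.64 FPKM. Flt3, a receptor of lymphoid progenitors, had 0.0785 and 0.0796 FPKM in the induced libraries, against 0.401, 1.32 and 0.447 FPKM in pro/pre-B and 24.8 to 28.2 FPKM in natural marrow ETPs. Gata3, Bcl11b, Cd3e, Cd3g, Ptcra, Trac, Trbc2, Cd4 and Cd8a were listed at 0 in all 5 libraries, though of these only Gata3 reached 1 FPKM in natural marrow ETPs, at 2.09 to 3.93 FPKM. Not all markers were low: Tcf7 stood at 38.2 and 36.7 FPKM in the induced libraries, against 1.57, 0.535 and 1.38 FPKM in pro/pre-B. Kit and Thy1 were higher than in pro/pre-B as well.

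Differences were tested with limma on log2(FPKM + 1), with the spread estimated over all 24 groups of the series and Benjamini-Hochberg adjustment over the genes tested. At adjusted p under 0.05, 1410 genes rose (8.10% of those tested) and 1288 fell (7.40%), which is 15.5% in either direction, and the libraries of the groups did not overlap for 2471 of the 2698 (14.2% of those tested). Of the changed genes, 319 were at least 4-fold higher and 364 at least 4-fold lower in the induced libraries. The median log2 fold change over all genes tested was 0.00. An exact permutation test of 2 libraries against 3 cannot go below p = 0.1, so the calls rest on the spread borrowed from the other groups. A gene listed at 0 in most of those groups has little spread there. Its SE and p-value can then be too small for the spread of these 5 libraries. Where a gene varies widely within other groups, its SE can instead be too large, so a gene that did not pass can still differ. With the spread taken from the 5 libraries alone, which leaves 3 residual degrees of freedom, 13 genes passed (8 higher, 5 lower) and 2223 had an unadjusted p under 0.05.

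Among the B lineage lists, that of B cell surface and maturation genes had the most falls. Of 20 B cell surface and maturation genes, 14 fell, against 7.40% of all genes tested, and none rose, with a median log2 fold change of -2.11 (-2.03 for the 15 members above 0 in both groups). Over 3 lists of B lineage genes, 30 of 60 fell and 2 rose, the median was -0.87 (-0.84 for the 55 above 0 in both groups), and the libraries did not overlap for 31 of the 32. With a pseudocount of 0.1 in place of 1, 20 of the 60 passed. The promoters of 6 B lineage genes are shown for the contrast between members that fell steeply (Fcmr, Fcrla, Cd22), a member that fell in part (Cd72) and the surrogate light chain genes, which stayed high (Igll1, Vpreb1). They run 5′ to 3′ on the gene's strand from 250 bases before to 50 bases after the RefSeq start in GRCm38.p6, a later build than the one used for the counts. Capitals mark a match to an E box (CAGGTG), a PU box (GAGGAAGT) or an EBF site (TCCC and GGGA with 2 bases between), searched on both strands, so the reverse complement is in capitals where the match is on the other strand. An octamer (ATGCAAAT) was searched as well and is in none of the 6.
Fcmr (chr1:130865527-130865826, plus strand): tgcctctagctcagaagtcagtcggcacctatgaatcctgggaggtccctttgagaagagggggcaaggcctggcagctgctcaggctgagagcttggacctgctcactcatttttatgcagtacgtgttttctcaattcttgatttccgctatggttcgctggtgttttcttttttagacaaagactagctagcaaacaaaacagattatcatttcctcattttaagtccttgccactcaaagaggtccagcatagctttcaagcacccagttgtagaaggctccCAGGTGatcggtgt
Fcrla (chr1:170927534-170927833, minus strand): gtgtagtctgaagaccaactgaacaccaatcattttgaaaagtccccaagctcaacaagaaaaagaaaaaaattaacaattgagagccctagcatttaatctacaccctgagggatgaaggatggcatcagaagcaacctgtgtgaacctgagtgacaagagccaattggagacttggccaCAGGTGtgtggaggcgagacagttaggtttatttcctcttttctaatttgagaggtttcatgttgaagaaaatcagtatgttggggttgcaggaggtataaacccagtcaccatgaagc
Cd22 (chr7:30878979-30879278, minus strand): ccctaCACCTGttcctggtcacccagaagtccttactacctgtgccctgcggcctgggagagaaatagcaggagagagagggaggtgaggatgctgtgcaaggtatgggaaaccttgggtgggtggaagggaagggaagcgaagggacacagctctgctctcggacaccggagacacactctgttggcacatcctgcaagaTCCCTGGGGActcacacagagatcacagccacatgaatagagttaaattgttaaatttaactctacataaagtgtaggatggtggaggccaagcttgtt
Cd72 (chr4:43454577-43454876, minus strand): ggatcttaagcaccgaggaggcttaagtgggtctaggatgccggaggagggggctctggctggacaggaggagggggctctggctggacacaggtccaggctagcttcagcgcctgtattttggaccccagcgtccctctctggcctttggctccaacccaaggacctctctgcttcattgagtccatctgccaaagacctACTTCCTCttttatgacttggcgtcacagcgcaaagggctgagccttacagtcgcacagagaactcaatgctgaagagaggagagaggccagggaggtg
Igll1 (chr16:16863936-16864235, minus strand): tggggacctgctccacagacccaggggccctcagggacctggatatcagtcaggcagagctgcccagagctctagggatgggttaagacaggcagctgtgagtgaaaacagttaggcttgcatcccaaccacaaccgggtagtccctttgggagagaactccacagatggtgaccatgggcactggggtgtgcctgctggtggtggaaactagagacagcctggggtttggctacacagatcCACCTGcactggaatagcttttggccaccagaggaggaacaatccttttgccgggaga
Vpreb1 (chr16:16869206-16869505, minus strand): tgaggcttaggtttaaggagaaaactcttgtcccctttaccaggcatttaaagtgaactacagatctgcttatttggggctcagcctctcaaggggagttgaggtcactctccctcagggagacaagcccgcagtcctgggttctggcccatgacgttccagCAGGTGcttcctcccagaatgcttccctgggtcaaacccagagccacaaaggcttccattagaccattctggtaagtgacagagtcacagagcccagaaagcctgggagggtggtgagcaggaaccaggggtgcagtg

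An E box lies in the windows of Fcmr, Fcrla and Cd22, and equally in those of Igll1 and Vpreb1, so these letters do not part the members that fell from those that stayed high. Over all promoters of genes that rose, 14.9% held an E box, against 18.8% for genes that fell and 20.2% of all 32851 windows. The PU box stood in 3.18% of windows of genes that rose, 3.89% for genes that fell and 3.20% of all windows. For the EBF site the shares were 1.14%, 1.18% and 0.904%, and for the octamer 0.682%, 1.90% and 1.74%, in the same order. A match is a description of these letters and not a binding site.

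Fcmr, the Fc receptor for IgM, was listed at 0 in both induced libraries, against 100.01, 108 and 101.1 FPKM in pro/pre-B, with an adjusted p of 4.64e-37. The pro/pre-B libraries were nearly level with each other. Fcrla, an intracellular Fc receptor-like protein of B cells, had 16.6 and 7.29 FPKM in the induced libraries, against 1094, 1036 and 979 FPKM in pro/pre-B (log2 fold change -6.42, SE 0.41, adjusted p = 1.29e-19). Ms4a1, which encodes CD20, had 4.62 and 0.327 FPKM in the induced libraries, against 103, 141 and 109 FPKM in pro/pre-B (log2 fold change -5.43, SE 0.35, adjusted p = 3.52e-19). In both genes every induced library was far under the lowest pro/pre-B library. Cd40, the receptor for T cell help, had 0.850 and 1.02 FPKM in the induced libraries, against 27.6, 48.1 and 59.2 FPKM in pro/pre-B (log2 fold change -4.50, SE 0.45, adjusted p = 5.06e-12). Cd22, an inhibitory receptor that binds sialic acid, had 0.941 and 0.852 FPKM in the induced libraries, against 32.0, 30.3 and 14.1 FPKM in pro/pre-B (log2 fold change -3.72, SE 0.20, adjusted p = 4.5e-23). The chemokine receptor Ccr7, which guides lymphocytes to lymph nodes, had 4.05 and 0.342 FPKM in the induced libraries, against 48.3, 45.6 and 41.7 FPKM in pro/pre-B (log2 fold change -4.15, SE 0.54, adjusted p = 1.46e-08). None of these 3 overlapped between the groups. Cd86 and Cxcr5 were listed at 0 in both induced libraries, against 12.1, 2.08 and 6.91 FPKM for Cd86, a costimulatory ligand, and 4.91, 9.14 and 3.08 FPKM for Cxcr5, the receptor that leads B cells to follicles, in pro/pre-B. The loss was partial for other members. Cd72, an inhibitory coreceptor, had 100.6 and 121 FPKM in the induced libraries, against 692, 716 and 794 FPKM in pro/pre-B (log2 fold change -2.72, SE 0.35, adjusted p = 1.47e-08). The tetraspanin Cd37 had 281 and 343 FPKM in the induced libraries, against 1126, 1049.6 and 1007 FPKM in pro/pre-B (log2 fold change -1.77, SE 0.26, adjusted p = 3.46e-07). Both were still clearly present in the induced libraries.

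Mature B cells of the series, 4 libraries, held Fcmr at 1666 to 2159 FPKM, Ms4a1 at 1163 to 1419 FPKM and Fcrla at 355 to 572 FPKM. Every pro/pre-B library was above every mature B library for Fcrla and below every one for Fcmr and Ms4a1. In bulk RNA, fewer cells of a type and less RNA per cell cannot be told apart.

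The B lineage transcription factors fell in part. Of 20 factors, 8 fell, beside 7.40% of all genes tested, and none rose, with a median of -0.65. Ebf1, which opens the B cell program, had 112 and 116 FPKM in the induced libraries, against 89.8, 110.1 and 87.4 FPKM in pro/pre-B (log2 fold change 0.26, SE 0.19, adjusted p = 0.472). The difference did not pass the test. Pax5, which keeps cells committed to the B lineage, had 4.67 and 9.80 FPKM in the induced libraries, against 17.2, 23.8 and 22.0 FPKM in pro/pre-B (log2 fold change -1.48, SE 0.23, adjusted p = 1.77e-06). It fell, with no overlap between the groups. The steepest falls among the 8 were in a pair of related Ets factors. Spib had 62.5 and 56.5 FPKM in the induced libraries, against 492, 504 and 591 FPKM in pro/pre-B (log2 fold change -3.13, SE 0.43, adjusted p = 7.51e-08). Spi1, which encodes PU.1, had 2.66 and 4.62 FPKM in the induced libraries, against 26.7, 27.7 and 20.1 FPKM in pro/pre-B (log2 fold change -2.50, SE 0.43, adjusted p = 9.01e-06). Every induced library lay well under all 3 pro/pre-B libraries for both. Tcf3, which encodes the E2A proteins, had 111 and 111 FPKM in the induced libraries, against 274, 281 and 229 FPKM in pro/pre-B (log2 fold change -1.23, SE 0.23, adjusted p = 5.2e-05). Ikzf1, which encodes Ikaros, had 99.7 and 99.1 FPKM in the induced libraries, against 163, 154 and 143 FPKM in pro/pre-B (log2 fold change -0.62, SE 0.16, adjusted p = 0.00426). These were smaller falls, again with no overlap. Lef1, a Wnt-responsive factor of pro-B cells, stood at 94.6 and 87.6 FPKM in the induced libraries, against 42.7, 53.2 and 50.3 FPKM in pro/pre-B, with an adjusted p of 0.0744.

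The pre-B receptor genes did not move as a block: 2 of 20 rose and 8 fell, beside 8.10% and 7.40% of all genes tested, and the median was -0.67. Without induced library 2, 4 fell. The surrogate light chain gene Igll1 had 4261 and 3571 FPKM in the induced libraries, against 2439, 2712 and 2069.8 FPKM in pro/pre-B (log2 fold change 0.71, SE 0.50, adjusted p = 0.437). Vpreb1 had 1581 and 1843 FPKM in the induced libraries, against 943, 1135 and 877 FPKM in pro/pre-B (log2 fold change 0.80, SE 0.75, adjusted p = 0.627). Both stood above every pro/pre-B library in both induced libraries, but neither passed the test. Vpreb2 rose, with 875 and 1084 FPKM in the induced libraries, against 144, 84.8 and 130.5 FPKM in pro/pre-B (log2 fold change 3.05, SE 0.27, adjusted p = 1.25e-13), although Vpreb1 and Vpreb2 are near copies and reads may be split between them. The signaling arm was lower. Syk, the kinase that the pre-B receptor activates, had 27.7 and 22.3 FPKM in the induced libraries, against 103, 100.4 and 108 FPKM in pro/pre-B (log2 fold change -2.02, SE 0.32, adjusted p = 2.85e-06). Ptpn6, the phosphatase SHP-1 that inhibitory receptors recruit, had 76.5 and 73.5 FPKM in the induced libraries, against 205, 257 and 294 FPKM in pro/pre-B (log2 fold change -1.72, SE 0.23, adjusted p = 3.45e-08). Cd79a, a signaling chain of the receptor, had 372 and 304 FPKM in the induced libraries, against 1003, 847 and 858 FPKM in pro/pre-B (log2 fold change -1.42, SE 0.31, adjusted p = 0.000491). Groups were separate for all 3 of these genes, and the call of Cd79a was lost with a pseudocount of 0.1 (adjusted p = 0.402). The adaptor Blnk showed no such gap, with 541 and 452 FPKM in the induced libraries, against 494, 457 and 438 FPKM in pro/pre-B (log2 fold change 0.10, SE 0.47, adjusted p = 1). Of 13 MHC class II pathway genes, 1 rose and 3 fell, beside the same 8.10% and 7.40%, with a median of -0.70. Ifi30, a lysosomal thiol reductase of antigen processing, had 9.92 and 10.1 FPKM in the induced libraries, against 161, 234 and 165 FPKM in pro/pre-B (log2 fold change -4.07, SE 0.68, adjusted p = 6.14e-06).

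**Figure D1:**
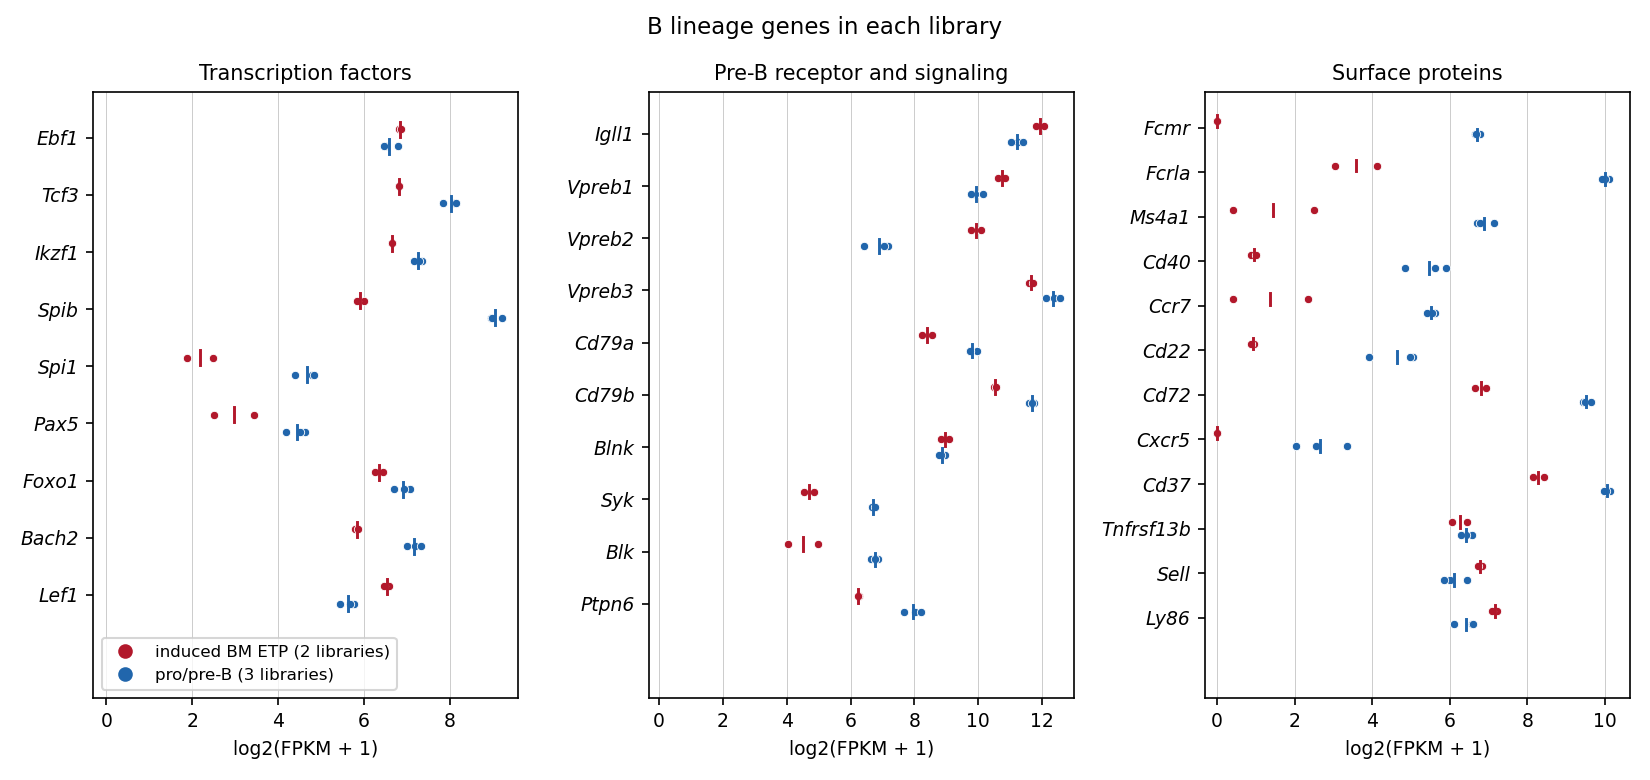
Levels of B lineage genes on a log2(FPKM + 1) axis, with induced BM ETP libraries (red, 2) drawn above pro/pre-B libraries (blue, 3) for each gene; points are libraries and vertical bars group means. Fcrla and Ms4a1 lie far lower in the induced libraries, while Ebf1 (112 and 116 FPKM against 89.8, 110.1 and 87.4) and Blnk lie close together.

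Genes that mark steps of early B development changed in both directions. Of 14 pro-B stage genes, 2 rose and 5 fell, and of 14 small pre-B stage genes 1 rose and 7 fell, beside 8.10% and 7.40% of all genes tested, with medians of 0.51 and -0.88, so that the median of the pro-B list and its counts point in opposite directions. Enpep, the aminopeptidase known as the BP-1 antigen of late pro-B and early pre-B cells, had 593 and 465 FPKM in the induced libraries, against 29.0, 18.3 and 6.94 FPKM in pro/pre-B (log2 fold change 4.99, SE 0.23, adjusted p = 1.81e-25). Both induced libraries were more than 10-fold above the highest pro/pre-B library, and no other library of the series exceeded 0.826 FPKM. Kit, the stem cell factor receptor that pro-B cells carry and lose, had 12.4 and 16.4 FPKM in the induced libraries, against 2.18, 1.21 and 0 FPKM in pro/pre-B (log2 fold change 2.99, SE 0.49, adjusted p = 3.76e-06). Dntt, the terminal transferase that adds bases at heavy chain joints, went the other way with 119 and 103 FPKM in the induced libraries, against 406, 399 and 297 FPKM in pro/pre-B (log2 fold change -1.71, SE 0.18, adjusted p = 1.79e-11). Cd93, another early B marker, also fell, with 22.5 and 24.4 FPKM in the induced libraries, against 61.2, 73.4 and 83.8 FPKM in pro/pre-B (log2 fold change -1.58, SE 0.26, adjusted p = 3.65e-06). The groups did not overlap for any of these 4 genes. Il7r, the receptor for the cytokine that early B cells need, stood at 317 and 287 FPKM in the induced libraries, against 198, 179 and 201 FPKM in pro/pre-B, with an adjusted p of 0.132. Cxcr4, the receptor that retains cells in marrow, rose, with 100.9 and 95.7 FPKM in the induced libraries, against 13.3, 14.9 and 27.5 FPKM in pro/pre-B (log2 fold change 2.41, SE 0.55, adjusted p = 0.000867). Btg2, an antiproliferative gene of resting pre-B cells, had 38.2 and 43.6 FPKM in the induced libraries, against 200.5, 305 and 326 FPKM in pro/pre-B (log2 fold change -2.70, SE 0.20, adjusted p = 1.36e-16). Its relative Btg1 had 132 and 146 FPKM in the induced libraries, against 223, 296 and 381 FPKM in pro/pre-B (log2 fold change -1.07, SE 0.20, adjusted p = 3.07e-05). Both fell without overlap.

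Among 15 genes of V(D)J recombination and end joining, 3 rose and 5 fell, beside 8.10% and 7.40% of all genes tested, with a median of -0.52. Rag1, a subunit of the recombinase, had 21.7 and 12.6 FPKM in the induced libraries, against 44.2, 89.7 and 75.9 FPKM in pro/pre-B (log2 fold change -1.95, SE 0.35, adjusted p = 1.99e-05), whereas its partner Rag2 stood at 57.5 and 55.2 FPKM in the induced libraries, against 73.6, 85.0 and 86.3 FPKM in pro/pre-B (adjusted p = 0.584). Polm, a DNA polymerase related to Dntt that fills gaps at light chain joints, was almost lost, with 1.02 and 0.242 FPKM in the induced libraries, against 95.1, 85.5 and 141 FPKM in pro/pre-B (log2 fold change -6.06, SE 0.56, adjusted p = 3.68e-13). Each induced library was under 2 FPKM. Xrcc6, which encodes the end-binding protein Ku70, had 198 and 175 FPKM in the induced libraries, against 502, 555 and 559 FPKM in pro/pre-B (log2 fold change -1.52, SE 0.20, adjusted p = 1.51e-08). Its partner Xrcc5, which encodes Ku80, stood at 20.8 and 27.4 FPKM in the induced libraries, against 5.89, 7.99 and 8.05 FPKM in pro/pre-B (log2 fold change 1.59, SE 0.48, adjusted p = 0.0141), a rise that was not called without pro/pre-B library 1 (log2 fold change 1.47, adjusted p = 0.0502), without induced library 2 (log2 fold change 1.404, adjusted p = 0.159) or with a pseudocount of 0.1 (adjusted p = 0.063). The groups did not overlap for either Ku subunit. Hmgb1, a DNA-bending cofactor of the recombinase, rose, with 1399 and 1348 FPKM in the induced libraries, against 828, 775 and 778 FPKM in pro/pre-B (log2 fold change 0.79, SE 0.18, adjusted p = 0.000658). Its groups did not overlap either, though processed copies of Hmgb1 elsewhere in the genome can share its reads.

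Immunoglobulin RNA was narrower in the induced libraries. Of 53 named kappa variable segments, 17 and 11 were above 0 in the induced libraries, against 42, 43 and 41 in pro/pre-B. Igkv2-137 alone held 1249 and 1435 FPKM in the induced libraries, which is 68.3% and 84.9% of their summed kappa variable FPKM, against 6.69%, 5.95% and 4.57% of the sums in pro/pre-B. The leading segments of pro/pre-B were Igkv6-32 at 12.2%, Igkv5-39 at 11.3% and Igkv8-27 at 13.3%, a different one in each library. These shares are of FPKM and not of cells. Summed kappa variable FPKM was 1828 and 1690 in the induced libraries, against 2502, 2219 and 3114 in pro/pre-B, so the sums differed far less than the makeup. For the heavy chain, Ighv4-1 made up 79.5% and 100% of the 23 named variable segments, though from only 24.2 and 10.8 FPKM, against a different leading segment in each pro/pre-B library with 28.4%, 35.1% and 50.6%. Reads of related segments can be split among them, and the segment shares were not tested.

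**Figure D2:**
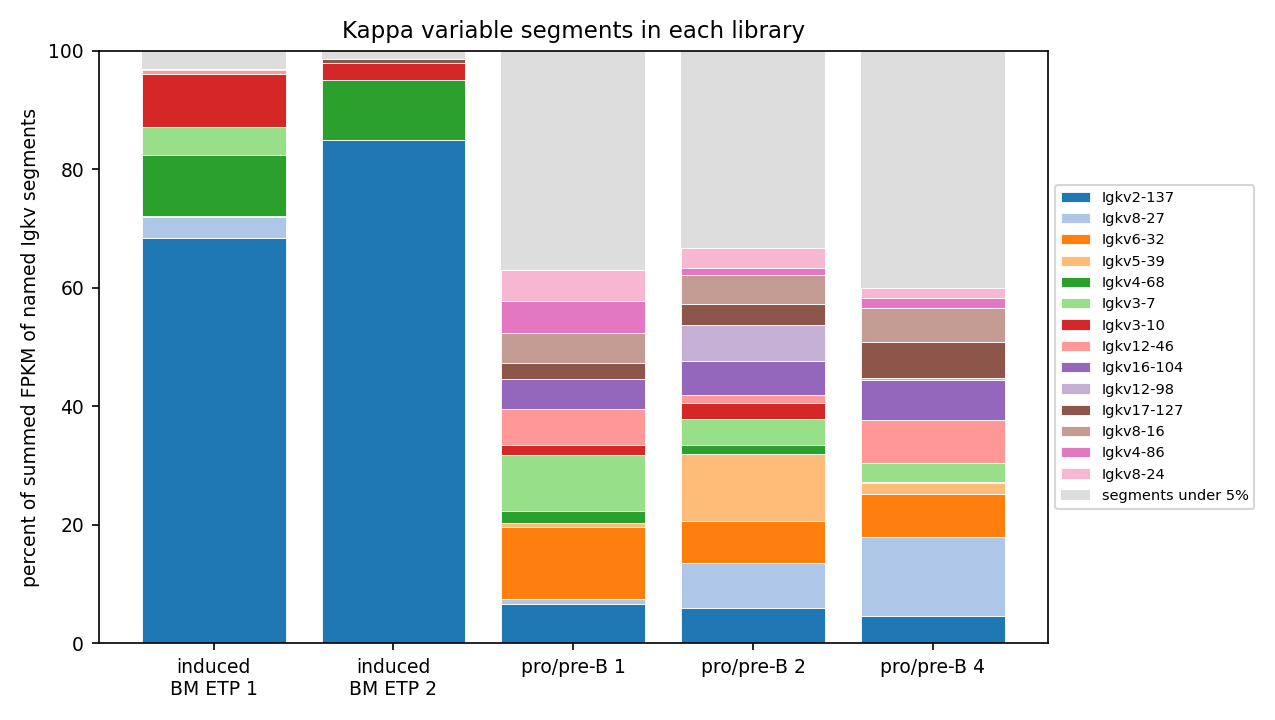
Stacked shares of the summed FPKM of named kappa variable segments (percent) in the 2 induced BM ETP libraries, at the left, and the 3 pro/pre-B libraries; colours are segments that reach 5% in any library, and grey is all the rest. Igkv2-137 takes 68.3% and 84.9% in the induced libraries and 4.57% to 6.69% in pro/pre-B.

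The constant genes differed as well. Ighg2b, the constant region of the IgG2b heavy chain, had 1976 and 2211 FPKM in the induced libraries, against 31.5, 28.8 and 14.2 FPKM in pro/pre-B (log2 fold change 6.42, SE 0.58, adjusted p = 1.76e-13). The highest of the 70 other libraries of the series, of mature myeloid cells, held 62.1 FPKM. Ighg2c was listed at 2.59 and 1.62 FPKM in the induced libraries, against 0 in all 3 pro/pre-B libraries, a low level, with an adjusted p of 0.000217. Iglc2, a lambda light chain constant region, was listed at 0 in both induced libraries, against 465, 859 and 877 FPKM in pro/pre-B (adjusted p = 1.32e-21). Summed lambda variable FPKM was 39.1 and 7.07 in the induced libraries, against 1008, 1453 and 1543 in pro/pre-B. The kappa constant region Igkc stood at 4039.8 and 3680.3 FPKM in the induced libraries, against 10455, 10820.4 and 13421 FPKM in pro/pre-B (log2 fold change -1.58, SE 1.42, adjusted p = 0.599). The groups did not overlap for Igkc, and its SE is pooled over all groups. Among the libraries labelled DP, Igkc spanned 0 to 163 FPKM. The lambda RNA that could be seen was thus far lower in the induced libraries, while kappa RNA was abundant in both groups. The lambda constant genes Iglc1, Iglc3 and Iglc4 were not found among the named genes. None of 9 plasma cell genes passed the test, beside 15.5% of all genes tested.

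Genes of the T lineage moved in both directions. Of 44 tested, 4 rose and 5 fell, beside 8.10% and 7.40% of all genes tested, the median was 0.00, and 16 of the members were listed at 0 in all 5 libraries. The exception in size was Tcf7, which encodes TCF-1, an early target of Notch in T progenitors: it had 38.2 and 36.7 FPKM in the induced libraries, against 1.57, 0.535 and 1.38 FPKM in pro/pre-B (log2 fold change 4.19, SE 0.19, adjusted p = 1.58e-26). Both induced libraries were over 20-fold above the highest pro/pre-B library. Tcf7 spanned 1.55 to 4.74 FPKM in the 3 natural marrow ETP libraries and 655 to 697 FPKM in the 3 induced thymic ETP libraries, and it stayed at or under 0.557 FPKM in HSC and mature B cells. Thy1, a surface protein of thymocytes, had 7.24 and 5.83 FPKM in the induced libraries, against 0.443, 0.397 and 2.53 FPKM in pro/pre-B (log2 fold change 1.96, SE 0.29, adjusted p = 3.08e-07). Lcp2, the adaptor SLP-76 shared by T and myeloid cells, had 21.0 and 20.3 FPKM in the induced libraries, against 7.02, 3.40 and 4.57 FPKM in pro/pre-B (log2 fold change 1.90, SE 0.25, adjusted p = 3.37e-08). Other genes of T cell signaling fell. Lck, the kinase of CD4 and CD8, had 2.60 and 0.649 FPKM in the induced libraries, against 25.6, 44.6 and 24.8 FPKM in pro/pre-B (log2 fold change -3.69, SE 0.23, adjusted p = 4.05e-20). Cd2, an adhesion receptor shared with B precursors, had 6.08 and 0.463 FPKM in the induced libraries, against 35.6, 67.0 and 82.7 FPKM in pro/pre-B (log2 fold change -4.20, SE 0.51, adjusted p = 3.17e-09). Dtx1, a Notch target, had 4.00 and 3.94 FPKM in the induced libraries, against 21.4, 24.3 and 18.1 FPKM in pro/pre-B (log2 fold change -2.15, SE 0.45, adjusted p = 0.000299). The groups did not overlap for any of these 3. Notch1 itself stood at 5.89 and 5.23 FPKM in the induced libraries, against 4.03, 7.07 and 8.57 FPKM in pro/pre-B (adjusted p = 0.894). Outside the rule for named genes, and chosen after their values were seen, the gamma chain constant genes Tcrg-C1 and Tcrg-C2 were listed at 7.38 and 5.51 FPKM and 7.81 and 10.9 FPKM in the induced libraries and at 0 in every pro/pre-B library.

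**Figure D3:**
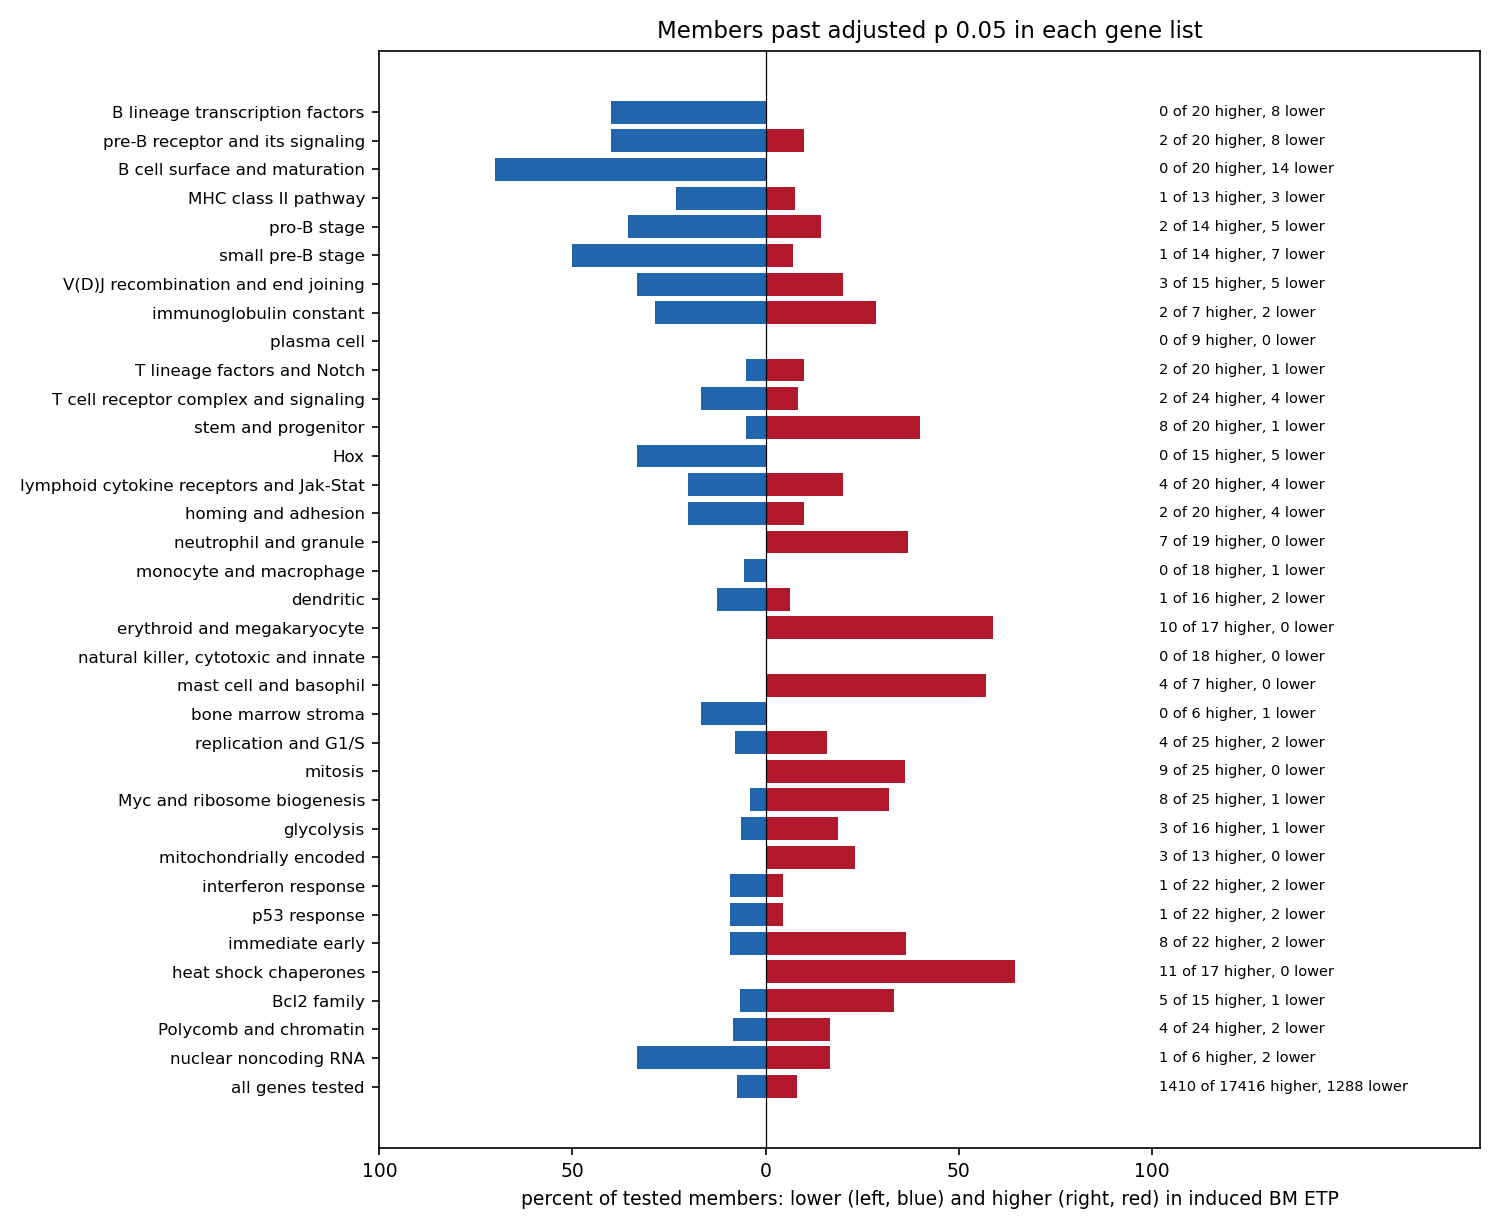
Percent of the tested members of each gene list that passed the test, with genes higher in induced BM ETP in red to the right of 0 and genes lower in blue to the left; counts stand at the right, and all genes tested are in the bottom row. Of the lists plotted, which leave out the sex-linked genes, the B cell surface list has the highest share of falls with 14 of 20 and heat shock chaperones the highest share of rises with 11 of 17.

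Of 20 stem and progenitor genes 8 rose and 1 fell, beside 8.10% and 7.40% of all genes tested, with a median of 0.51 (0.57 for the 13 above 0 in both groups). The groups overlapped for 3 of the 8, Cd34, Gata2 and Tal1, which were listed at 0 in induced library 1. Without induced library 2, 4 rose and the median was 0.00. Mycn, a Myc family factor of progenitors, had 11.7 and 15.9 FPKM in the induced libraries, against 0.656, 2.35 and 1.76 FPKM in pro/pre-B (log2 fold change 2.56, SE 0.46, adjusted p = 2.36e-05). Meis1, a cofactor of Hox proteins in stem cells, had 0 and 1.06 FPKM in the induced libraries, against 5.38, 4.91 and 1.34 FPKM in pro/pre-B (log2 fold change -1.63, SE 0.29, adjusted p = 1.76e-05). The groups were separate for both, narrowly for Meis1. Of 15 Hox and cofactor genes tested, none rose and 5 fell, beside 7.40% of all genes tested, with a median of -0.14 (-1.63 for the 3 above 0 in both groups). Hoxa7 was listed at 0 in both induced libraries, against 2.72, 4.67 and 5.21 FPKM in pro/pre-B (adjusted p = 1.07e-05).

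Of 20 cytokine pathway genes 4 rose and 4 fell, beside 8.10% and 7.40% of all genes tested, with a median of 0.09. Feedback inhibitors of Jak-Stat signaling moved both ways. Cish had 55.6 and 53.2 FPKM in the induced libraries, against 8.28, 5.63 and 6.13 FPKM in pro/pre-B (log2 fold change 2.87, SE 0.41, adjusted p = 1.52e-07). Socs2 had 187 and 119.5 FPKM in the induced libraries, against 20.5, 16.3 and 20.8 FPKM in pro/pre-B (log2 fold change 2.91, SE 0.55, adjusted p = 5.72e-05). Socs3 was listed at 7.50 and 2.49 FPKM in the induced libraries, against 0 in all 3 pro/pre-B libraries (adjusted p = 0.00013). Socs1 fell, with 0.257 and 0 FPKM in the induced libraries, against 6.39, 8.39 and 5.55 FPKM in pro/pre-B (log2 fold change -2.78, SE 0.47, adjusted p = 7.49e-06). Of these inhibitors, Cish, Socs2 and Socs3 were higher in both induced libraries than in any pro/pre-B library. Il4ra, a chain of the IL-4 receptor, had 0.987 and 0.205 FPKM in the induced libraries, against 12.0, 11.2 and 29.9 FPKM in pro/pre-B (log2 fold change -3.46, SE 0.37, adjusted p = 5.05e-11). Il21r, which binds IL-21, had 2.24 and 1.25 FPKM in the induced libraries, against 11.8, 11.4 and 14.6 FPKM in pro/pre-B (log2 fold change -2.33, SE 0.37, adjusted p = 1.66e-06). Of 20 homing and adhesion genes 2 rose, close to the 8.10% of all genes tested, and 4 fell, beside 7.40%, with 2 calls of a fall without pro/pre-B library 2. Itgb1, the integrin chain that holds cells to marrow matrix, rose, with 21.3 and 17.5 FPKM in the induced libraries, against 5.65, 7.66 and 5.87 FPKM in pro/pre-B (log2 fold change 1.47, SE 0.27, adjusted p = 2.77e-05).

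The single gene with the largest rise was Bmi1, a subunit of Polycomb repressive complex 1 known for the self-renewal of stem cells. It had 1439 and 1325 FPKM in the induced libraries, against 9.58, 8.69 and 12.8 FPKM in pro/pre-B (log2 fold change 6.94, SE 0.41, adjusted p = 3.35e-21), so both induced libraries were over 100-fold above the highest pro/pre-B library. Natural marrow ETPs held 12.6 to 16.6 FPKM (3 libraries), induced thymic ETPs 9.78 to 19.9 FPKM (3 libraries), HSC 21.8 to 33.2 FPKM (4 libraries) and mature B cells 14.5 to 23.4 FPKM (4 libraries). No library outside the induced BM ETP group exceeded 47.4 FPKM. Commd3, the gene next to Bmi1, was looked up after this value was seen and stood at 416 and 388 FPKM in the induced libraries, against 214, 231 and 186 FPKM in pro/pre-B (log2 fold change 0.94, SE 0.26, adjusted p = 0.00788), a call that was lost without induced library 1 (log2 fold change 0.89, adjusted p = 0.0808). The Polycomb and chromatin list, Bmi1 included, had 4 of 24 genes higher and 2 lower, beside 8.10% and 7.40% of all genes tested, and a median of 0.15, with 2 higher when either induced library was left out. Cbx7, a chromobox subunit, fell, with 4.53 and 5.15 FPKM in the induced libraries, against 20.5, 25.4 and 18.9 FPKM in pro/pre-B (log2 fold change -1.94, SE 0.35, adjusted p = 2.03e-05). Both induced libraries were under every pro/pre-B library.

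**Figure D4:**
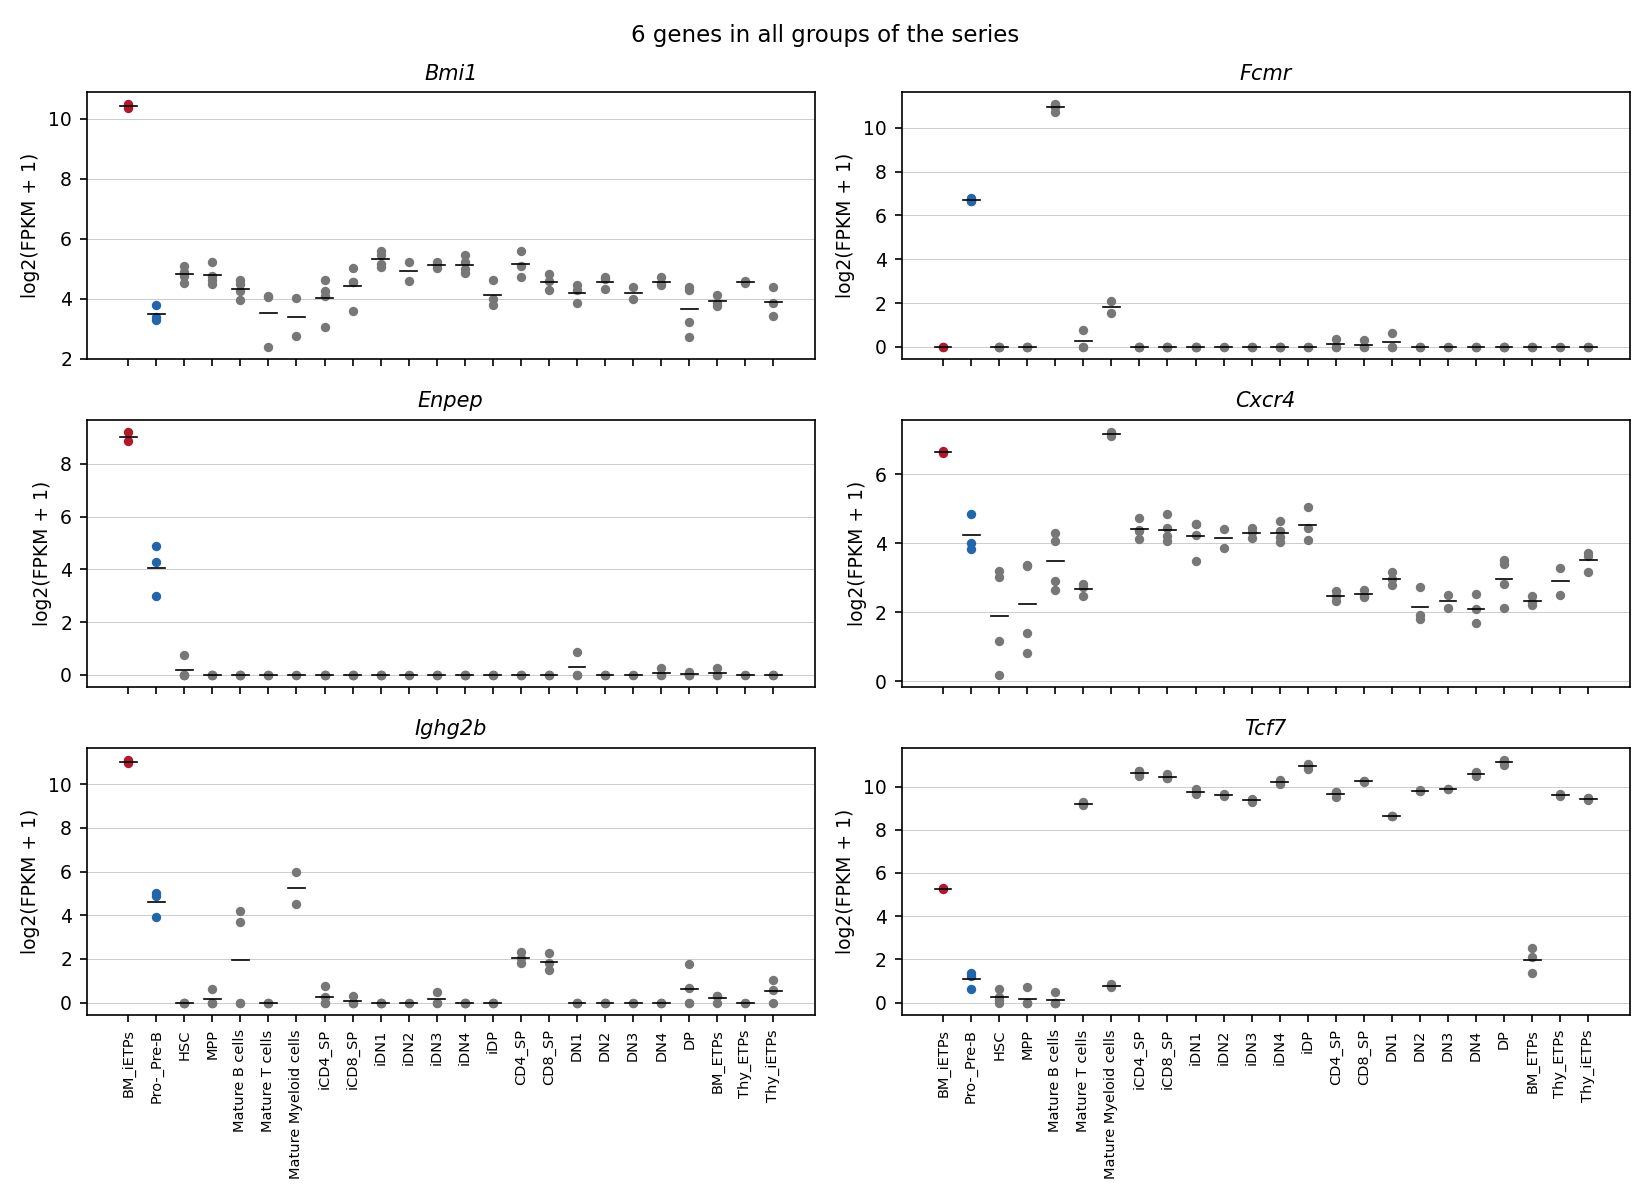
Levels on log2(FPKM + 1) axes in all 24 groups of the series; points are libraries, horizontal bars group means, red is induced BM ETP, blue is pro/pre-B and grey the other groups. Bmi1, Enpep and Ighg2b are highest in induced BM ETP, Fcmr is highest in mature B cells (1666 to 2159 FPKM), and Tcf7 is far higher in induced thymic ETPs (655 to 697 FPKM) than in induced BM ETP (38.2 and 36.7 FPKM).

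The 15 genes that rose most and the 15 that fell most, among changed genes with no overlap between groups and at least 5 FPKM in the higher group, were taken as leading genes, and those reported here are shown in their plot. Ctse, the aspartic protease cathepsin E, had 336 and 363 FPKM in the induced libraries, against 1.87, 3.37 and 1.92 FPKM in pro/pre-B (log2 fold change 6.72, SE 0.68, adjusted p = 7.98e-12). A library of induced DN1 cells reached 388 FPKM. Crhbp, which binds corticotropin-releasing hormone, had 177 and 159 FPKM in the induced libraries, against 5.04, 6.97 and 0.163 FPKM in pro/pre-B (log2 fold change 5.46, SE 0.27, adjusted p = 3.93e-24). It was listed at 0 in all 70 other libraries, so its SE rests largely on those zeros and not on the spread of these 5. Its low levels in pro/pre-B were therefore the only others in the series. Rarres1, named for its response to retinoic acid, had 40.7 and 66.0 FPKM in the induced libraries, against 1.06, 1.63 and 0.872 FPKM in pro/pre-B (log2 fold change 4.61, SE 0.25, adjusted p = 2.9e-22). Depdc7 and Spsb4, a SOCS box protein, rose at lower levels, and Atf3, Retnlg and 4 globin genes were also among those that rose most. Of the 15 that fell most, all of which had to average 5 FPKM or more in pro/pre-B, 14 had a median of at least 5 FPKM in mature B cells, 11 in DN1 cells and 9 in mature myeloid cells. Of the 15 that rose most, these counts were 4, 4 and 6. Rnase6, a secreted ribonuclease, was listed at 0 in both induced libraries, against 108, 133 and 116 FPKM in pro/pre-B (adjusted p = 2.22e-24). Psme4, an activator of the proteasome, had 0.682 and 0.191 FPKM in the induced libraries, against 29.6, 42.5 and 49.0 FPKM in pro/pre-B (log2 fold change -4.84, SE 0.37, adjusted p = 1.83e-16). It was near 0 in both induced libraries. Spns3, Bex3, Klra1, Skap2, Pld4 and the host RNA of microRNA 142, Mir142hg, were also among them, besides Iglc2, Fcmr, Fcrla, Polm, Ms4a1 and Eif2s3y.

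**Figure D5:**
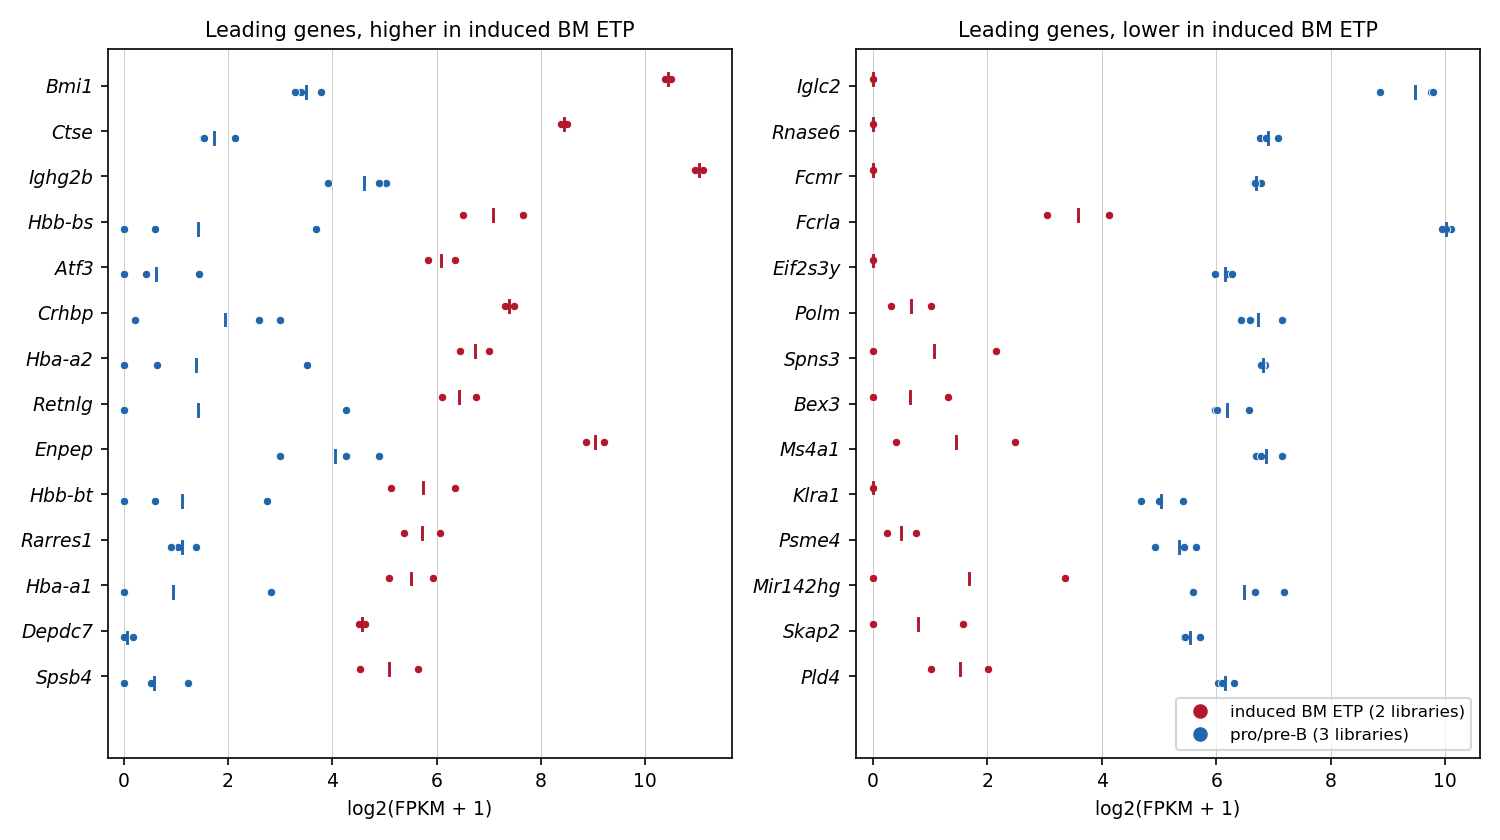
Levels on a log2(FPKM + 1) axis of genes from the 15 that rose most (left panel) and the 15 that fell most (right panel), with induced BM ETP libraries (red, 2) above pro/pre-B libraries (blue, 3); points are libraries and vertical bars group means. The groups are apart for each gene by the rule that chose them, and the largest differences of the means are at Bmi1 and Iglc2.

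Growth and protein folding genes rose in part, as the plot of gene lists shows. Of 17 heat shock chaperones 11 rose, beside 8.10% of all genes tested, and none fell, with a median of 0.83. Hspa8, the constitutive Hsp70, had 1098 and 1175 FPKM in the induced libraries, against 721, 557 and 509.9 FPKM in pro/pre-B (log2 fold change 0.95, SE 0.18, adjusted p = 7.57e-05). Hsph1, its exchange factor, had 64.3 and 78.3 FPKM in the induced libraries, against 19.0, 14.0 and 13.6 FPKM in pro/pre-B (log2 fold change 2.14, SE 0.35, adjusted p = 3.93e-06). Both were above every pro/pre-B library in both induced libraries. Hspa8 and Npm1 have processed copies that can share their reads. Of 25 genes of Myc and ribosome biogenesis 8 rose and 1 fell, beside 8.10% and 7.40% of all genes tested, with a median of 0.67. Myc had 64.2 and 48.1 FPKM in the induced libraries, against 16.3, 16.3 and 8.53 FPKM in pro/pre-B (log2 fold change 1.99, SE 0.40, adjusted p = 0.000136). Npm1, a nucleolar chaperone of ribosome assembly, had 1928 and 1720.0 FPKM in the induced libraries, against 1174, 908 and 966 FPKM in pro/pre-B (log2 fold change 0.85, SE 0.14, adjusted p = 3.31e-06). Mxd4, an antagonist of Myc, fell, with 13.8 and 22.5 FPKM in the induced libraries, against 35.4, 56.3 and 56.8 FPKM in pro/pre-B (log2 fold change -1.41, SE 0.25, adjusted p = 2.38e-05).

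Of 25 mitosis genes 9 rose, beside 8.10% of all genes tested, and none fell, with a median of 1.10. The count was 2 without induced library 1, 7 without induced library 2, 5 without pro/pre-B library 2 or 4, and 3 with a pseudocount of 0.1. Ccnb1, the cyclin of mitotic entry, had 399 and 386 FPKM in the induced libraries, against 106, 108 and 77.0 FPKM in pro/pre-B (log2 fold change 2.02, SE 0.43, adjusted p = 0.000355). Prc1, which bundles microtubules in the spindle midzone, had 258 and 206 FPKM in the induced libraries, against 68.8, 67.5 and 65.8 FPKM in pro/pre-B (log2 fold change 1.76, SE 0.41, adjusted p = 0.00109). Each was higher in both induced libraries than in any of the 3 pro/pre-B libraries. Of 25 replication genes 4 rose and 2 fell, beside 8.10% and 7.40% of all genes tested, with a median of 0.09, and 2 rose without induced library 1 or pro/pre-B library 2 and 1 without induced library 2. Ccnd2, a cyclin of G1 in B cells, was nearly lost, with 0.0918 and 0.911 FPKM in the induced libraries, against 25.8, 22.0 and 19.7 FPKM in pro/pre-B (log2 fold change -4.02, SE 0.30, adjusted p = 2.23e-16). E2f2, an E2F factor, had 42.4 and 45.6 FPKM in the induced libraries, against 113, 116 and 130.2 FPKM in pro/pre-B (log2 fold change -1.42, SE 0.32, adjusted p = 0.000702). Of 22 immediate early genes 8 rose and 2 fell, beside 8.10% and 7.40% of all genes tested, with a median of 0.52, and 4 rose without induced library 2. Atf3, a stress-induced factor, had 55.8 and 81.1 FPKM in the induced libraries, against 1.71, 0.341 and 0 FPKM in pro/pre-B (log2 fold change 5.47, SE 0.68, adjusted p = 4.41e-09). Jun had 33.0 and 26.5 FPKM in the induced libraries, against 5.48, 7.03 and 12.1 FPKM in pro/pre-B (log2 fold change 1.80, SE 0.40, adjusted p = 0.000648). Both stress-responsive genes were higher in both induced libraries than in any pro/pre-B library. Malat1, an abundant nuclear noncoding RNA, fell, with 7.54 and 16.2 FPKM in the induced libraries, against 93.1, 289 and 118 FPKM in pro/pre-B (log2 fold change -3.61, SE 0.52, adjusted p = 2.68e-07). Neat1, another nuclear RNA, also fell, with 2.82 and 6.25 FPKM in the induced libraries, against 18.9, 22.4 and 27.7 FPKM in pro/pre-B (log2 fold change -2.17, SE 0.36, adjusted p = 4.93e-06). Of 13 mitochondrially encoded genes 3 rose, beside 8.10% of all genes tested, but none without induced library 1 and 1 without induced library 2 or pro/pre-B library 1. Of 22 interferon response genes and of 22 p53 response genes 1 rose and 2 fell in each list, beside 8.10% and 7.40% of all genes tested.

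Some markers of other cell types also differed between the groups. The summed FPKM of neutrophil genes was 2137 and 1343 in the induced libraries, against 29.8, 3.15 and 5993 in pro/pre-B, where library 4 stood apart through S100a8 and S100a9 (2009 and 2484 FPKM). Of 19 such genes 7 rose, beside 8.10% of all genes tested, and 11 without pro/pre-B library 4. The groups overlapped for 2 of the 7, S100a8 (668 and 423 FPKM in the induced libraries) and S100a9 (958 and 720 FPKM). For both, pro/pre-B library 4 was above each induced library. Their calls were lost without pro/pre-B library 2 (adjusted p = 0.312 and 0.0603), where 2 genes were called lower. Elane was listed at 0 in all 5 libraries. Mpo, the myeloperoxidase of granule precursors, was listed at 4.77 and 11.5 FPKM in the induced libraries, against 0 in all 3 pro/pre-B libraries. Erythroid and megakaryocyte genes summed to 986 and 751 FPKM in the induced libraries, against 131, 144 and 154 in pro/pre-B, and 10 of 17 rose, beside 8.10% of all genes tested, with overlap between the groups for 3 of the 10. Most of that sum was Car2 with 309 and 293 FPKM and the globin genes, led by Hbb-bs at 199.7 and 89.5 FPKM in the induced libraries, against 0.513, 11.9 and 0 FPKM in pro/pre-B, and the globin copies share reads. The call of Car2 was lost with a pseudocount of 0.1 (adjusted p = 0.128). Mast cell genes summed to 3.15 and 34.9 FPKM in the induced libraries and were listed at 0 in all 3 pro/pre-B libraries. Cpa3 held 0 and 21.7 FPKM of these sums. Of 7 mast cell genes 4 rose, 3 without induced library 1 and 2 without induced library 2. None of 18 natural killer genes passed, 1 of 18 monocyte genes and 1 of 6 stromal genes fell, and of 16 dendritic cell genes 1 rose and 2 fell. Beside these counts and those of mast cell genes, 8.10% of all genes tested rose and 7.40% fell. The part of such cells in the results was not tested.

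Sex also differed between the groups. Xist was listed at 8.65 and 10.4 FPKM in the induced libraries, against 0 in all 3 pro/pre-B libraries, and the Y-linked genes Ddx3y, Eif2s3y, Kdm5d and Uty were listed at 0 in both induced libraries and above 0 in every pro/pre-B library. Sex and group therefore cannot be told apart here. Of 630 X-linked genes tested, 42 rose and 45 fell, which is 13.8% in either direction, beside 15.5% of all genes tested.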

How the data were processed

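The deposited table gives FPKM per Ensembl gene for each library. The submitters' processing notes name bcl2fastq, TopHat, Cuffnorm, Cufflinks 2.2.1 and the mouse genome NCBIM37. Parameters, the annotation version and library scaling are not given in the sources used here. A 0 can be a failed estimate: mt-Nd4l is listed at 0 in all 5 libraries. Read counts were not used here. Depth was placed from the steps of low values of genes with 1 transcript, of which 70.2% to 78.4% in the 5 libraries came within 0.2 of a whole fragment, so no reads were recovered. The scale of each library was chosen to make this share high, so the share is no test of the depth.

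Values were tested as log2(FPKM + 1) with limma 3.58.1 in R 4.3.3 (trend and robust, 1 mean per group, 75 libraries in 24 groups, 51 residual degrees of freedom, two-sided, Benjamini-Hochberg over 17416 genes). Fold changes on this scale understate those of low genes. Tables and figures were made with Python 3.11.15. Symbols came from GENCODE vM21 on GRCm38, which matched 32916 IDs (86.7%). The fit was also run on simulated data that gave each gene the same spread in all groups. Such data cannot show whether a pooled spread holds for these 5 libraries.

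The genes named are the 15 in each direction with the largest fold change among changed genes whose libraries do not overlap and that reach a mean of 5 FPKM, and members of the gene lists; some of these genes are not reported here, though counts over the lists include them. The comparison and the lists were chosen with earlier results of these data known. Alternatives were another pseudocount, no filter, equal totals, quantile normalization, library weights, a replicate block, the 2 groups alone and leaving out each library. The marrow groups alone, and a call that also asks for no overlap, were added after the data were seen.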

Additional observations from a re-analysis of the deposited data

How the results depend on the processing

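The counts of genes that rose and fell were 1410 and 1288 in the reported fit. They ranged from 904 to 1299 and from 802 to 1253 when 1 library was left out, with the lowest values without induced library 2, and the changed B lineage genes (32) ranged from 24 to 30, the T lineage genes (9) from 8 to 9 and the Hoxb5 log2 fold change (0.38) from 0.10 to 0.66. With a pseudocount of 0.1, 20 B lineage genes passed and Hoxb5 passed with a log2 fold change of 1.67, from values under 1 FPKM. With the 2 groups alone, 8 genes rose, 5 fell, and 1 B lineage and 0 T lineage genes passed, at 3 residual degrees of freedom. The remaining alternatives gave counts within 1.5 times those reported. Same-numbered libraries showed little shared deviation (correlations 0.016 and 0.034). The deviations of the 2 induced libraries mirror each other, so this cannot show whether the numbers pair libraries. With a replicate block 1405 genes rose and 1292 fell. Among named genes that did not pass, the log2 fold change of Blnk turned to -0.017 with quantile normalization and ranged from -0.033 to 0.23 when 1 library was left out, and that of Notch1 ranged from -0.42 to 0.040. Of the 96 named genes that passed, 90 kept their call and sign under every alternative other than the 2 groups alone, under which 4 kept their call. The named genes were in part chosen for large differences without overlap in these same libraries, so these counts cannot stand for all changed genes. The cause of the shifts between alternatives was not tested.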
